A study of Mus musculus with 23 samples.

Results

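The trophoblast is the first lineage to leave the mouse embryo, and it builds the placenta. The 10 genes described here are widely used as marks of it: the transcription factors Cdx2, Elf5, Ascl2, Hand1, Tfap2c and Gata3, the surface protein Plet1, and the simple epithelial keratins Krt8, Krt18 and Krt19. They were taken by symbol from a table of 29032 genes, and all 10 were in it. The set was chosen with earlier results of these data known. Their RNA was measured in embryoid bodies (EBs), the aggregates that embryonic stem cells (ESCs) form in suspension, and in ESCs.

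The 10 RNA-seq libraries formed 5 groups of 2, out of 23 samples in the series. The EBs were collected at day 2.5 and were either wild type (WT) or null for Trim33, both from ESCs with a C57Bl/6J background. Each genotype received activin A at 50 ng/ml for 2 h, or SB431542. Activin A signals through the receptors that Nodal uses, and SB431542 blocks the kinase of those type I receptors. The ESCs were wild-type E14 cells given activin A at 50 ng/ml. All libraries came from cells grown with 15% serum. The labels gave the SB431542 dose as 10 micromolar in one place and 10 millimolar in another, and its duration as 2 h in titles and 1 h in a protocol. The ESC titles carried the letters LKO beside a genotype of wild type. Trim33 encodes a chromatin reader that binds SMAD proteins, and its role in Nodal signalling is the question of the series. The labels do not state that replicate libraries are separate cultures. The p-values below hence reflect the scatter of the libraries alone, and this scatter may be technical.

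Cdx2, Elf5 and Tfap2c belong to the circuit that sets up and maintains trophoblast stem cells, with Gata3 acting beside Cdx2. Ascl2 is needed for the spongiotrophoblast and Hand1 for giant cells. Plet1 is a membrane protein of trophoblast stem cells. Krt8 and Krt18 are a type II and a type I keratin that pair into the filaments of simple epithelia, and Krt19 is another type I keratin. Several of these genes are also active outside the trophoblast: Tfap2c in germ cells, Ascl2 in intestinal stem cells, Hand1 in mesoderm and the keratins in many simple epithelia.

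The values are FPKM, fragments scaled for transcript length and library size, so genes can be compared with each other within a library. Summed FPKM ran from 236708 to 251582 per library, and 10262 to 10846 genes reached 1 FPKM. The depth of each library is unknown. Trim33 itself stood at 11.4 and 10.1 FPKM in WT EBs under activin and at 10.99 and 11.07 under SB431542. Trim33-null EBs held 2.23 and 2.69 under activin and 2.38 and 2.83 under SB431542, below every WT library. In ESCs it read 6.603 and 6.246. The EB lines differed in more than Trim33. The Y-linked gene Eif2s3y ran from 9.49 to 10.5 FPKM in WT EBs and from 0.0922 to 0.369 in Trim33-null EBs. Effects of the deletion and of the cell line therefore cannot be told apart in these libraries.

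The promoters of the genes that the results turn on are shown next, since Ascl2, Plet1, Krt8 and Krt18 are the members described most closely below. RefSeq promoters (GRCm38.p6) were found for 7 of the 10 genes, each with 250 bases before the start site and 50 after it, read 5′ to 3′ on the gene's own strand. Capitals mark the AP-2 motif GCCNNNGGC, the letters bound by the family of Tfap2c, and the TATA motif TATAAA, both searched on both strands. Ascl2 lies at chr7:142969215-142969514 on the minus strand, Plet1 at chr9:50494275-50494574 on the plus strand, Krt8 at chr15:102004293-102004592 on the minus strand and Krt18 at chr15:102027966-102028265 on the plus strand.
Ascl2: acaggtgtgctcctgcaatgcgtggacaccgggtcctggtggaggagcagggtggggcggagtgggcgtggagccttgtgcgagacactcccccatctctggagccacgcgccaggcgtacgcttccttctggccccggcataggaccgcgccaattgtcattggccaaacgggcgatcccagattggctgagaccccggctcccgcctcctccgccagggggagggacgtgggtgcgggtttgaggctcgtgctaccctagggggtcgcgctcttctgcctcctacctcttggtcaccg
Plet1: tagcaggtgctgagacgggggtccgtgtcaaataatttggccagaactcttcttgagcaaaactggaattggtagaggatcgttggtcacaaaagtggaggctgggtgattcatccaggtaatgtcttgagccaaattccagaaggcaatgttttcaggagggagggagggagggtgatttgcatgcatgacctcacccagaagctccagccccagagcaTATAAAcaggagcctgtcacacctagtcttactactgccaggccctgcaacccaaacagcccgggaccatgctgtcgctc
Krt8: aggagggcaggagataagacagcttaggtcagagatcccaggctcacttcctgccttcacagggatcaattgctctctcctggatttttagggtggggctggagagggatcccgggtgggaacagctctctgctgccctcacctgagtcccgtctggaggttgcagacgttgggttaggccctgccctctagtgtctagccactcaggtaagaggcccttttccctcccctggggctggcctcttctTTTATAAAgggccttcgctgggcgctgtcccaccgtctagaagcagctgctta
Krt18: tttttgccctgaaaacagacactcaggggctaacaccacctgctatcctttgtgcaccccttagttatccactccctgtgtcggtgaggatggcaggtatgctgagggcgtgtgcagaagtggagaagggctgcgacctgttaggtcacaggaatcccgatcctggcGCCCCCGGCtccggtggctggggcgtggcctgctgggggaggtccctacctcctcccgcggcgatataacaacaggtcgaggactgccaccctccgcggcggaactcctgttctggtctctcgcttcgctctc

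The 4 sequences differ in composition. The Ascl2 promoter is 67.0% G and C with 23 CpG dinucleotides, and that of Plet1 is 52.3% with 5 CpG. Krt8 (58.0%, 6 CpG) and Krt18 (61.3%, 17 CpG) also differ, against medians of 52.7% and 7 CpG over all 32851 promoters of the table. Plet1 holds TATAAA starting at position -30 from the start site. In Krt8 the motif occurs once on each strand, in overlapping letters that begin at positions -3 and -1. Krt18 holds 1 AP-2 match, at position -83, and no TATAAA. Neither motif is found in the Ascl2 window. Among all promoters 16.6% hold the AP-2 motif and 13.6% hold TATAAA. Of the other members, Gata3 has 3 AP-2 matches, Cdx2 has 1 and the 2 promoters of Elf5 have none. A match is a description of letters and says nothing of binding. Krt8 and Krt18 are neighbours on chromosome 15, point away from each other and have no protein-coding gene between them in RefSeq.

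The keratins led in level and the lineage factors were low. Krt8 ran from 14.1 to 45.7 FPKM over the 10 libraries, above 92.4% to 97.6% of genes in each, and Krt18 from 15.8 to 35.8. Tfap2c, at 3.28 to 8.27, and Krt19, at 1.49 to 7.39, were next. Ascl2 and Plet1 lay between 0.410 and 2.09 FPKM. Cdx2, Elf5, Hand1 and Gata3 did not reach 1 FPKM in any library, and no member was listed at 0 in any. Cdx2 and Elf5, the factors that define trophoblast stem cells, read at most 0.858 and 0.389 FPKM, while the pluripotency factor Pou5f1 read 161 to 243 FPKM in the same libraries. The placental genes Prl3b1 and Tpbpa read at most 0.0147 and 0.190 FPKM, while other genes of the placental list, such as Peg10 and Phlda2, read at least 14.1 and 9.68. In bulk RNA, a few cells with high levels and many cells with low levels cannot be told apart.

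**Figure D1:**
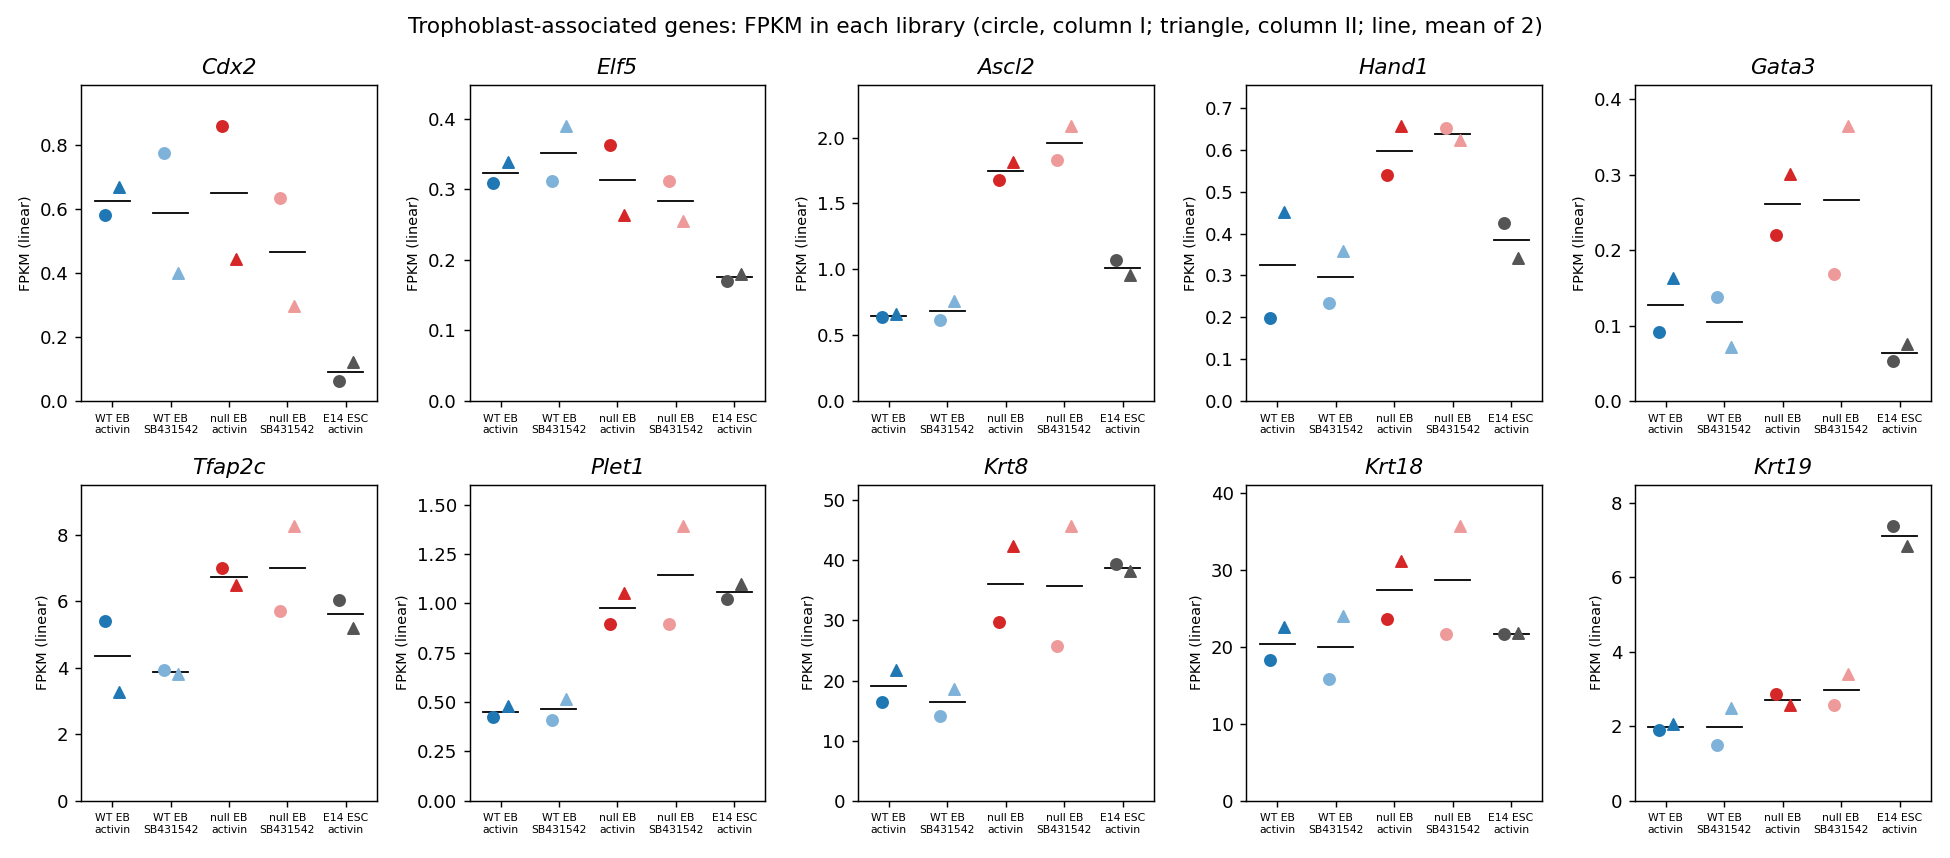
FPKM of the 10 genes on linear axes that start at 0, with 1 point per library (circles, column I; triangles, column II) and a line at the mean of the 2 libraries of each group. Ascl2, Hand1, Tfap2c, Gata3, Plet1, Krt8 and Krt19 are higher in all 4 Trim33-null EB libraries (red) than in all 4 WT EB libraries (blue), and Krt19 is highest in ESCs (grey).

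Differences between groups were tested with limma on log2(FPKM + 1), a scale on which the change of a low gene is understated. A gene entered when 2 or more libraries had 1 FPKM or more, adjusted p-values (Benjamini-Hochberg) cover all genes tested, and the threshold was 0.05. Of the 10 members 6 entered: Ascl2, Tfap2c, Plet1 and the 3 keratins. Ascl2 and Plet1 entered the fit of the EBs through their Trim33-null libraries alone. For the other 4 members values from a fit without the filter are given and named as such.

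Ascl2 was the member that separated the EB genotypes most clearly. Under activin it read 0.636 and 0.660 FPKM in WT EBs and 1.68 and 1.82 in Trim33-null EBs. Under SB431542 it read 0.613 and 0.756 in WT and 1.83 and 2.09 in Trim33-null EBs. The 4 null libraries thus lay above all 4 WT libraries, with a ratio of means of 2.78, and they did not overlap the ESCs at 1.07 and 0.957 either. The order was WT under both treatments, whose ranges overlap, then ESCs, then Trim33-null EBs under activin and under SB431542. The difference was 0.74 ± 0.08 (log2, SE, n = 2 per group) under activin, with a limma adjusted p of 0.0121. Under SB431542 it was 0.81 ± 0.08, with a limma adjusted p of 0.00911. In these comparisons 8.09% and 8.08% of the 11317 genes tested were called in either direction. Both calls held in the fit without a filter (limma adjusted p of 0.0305 and 0.0233). With the libraries of each numeral averaged over both treatments, the single genotype comparison gave 0.77 ± 0.08 (limma adjusted p = 0.0411). Without either WT library the activin call ended (limma adjusted p of 0.0816 without WT activin I and 0.0740 without II). The call under SB431542 ended in the same way (0.0629 without WT SB431542 I and 0.0758 without II), and the differences stayed between 0.73 and 0.87 in these 4 fits.

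Plet1 followed the same order in the EBs at lower values. It read 0.421 and 0.482 FPKM in WT EBs under activin, against 0.896 and 1.05 in Trim33-null EBs. Under SB431542 it read 0.410 and 0.514 in WT and 0.896 and 1.39 in null EBs. All 4 null libraries were above all 4 WT libraries, with a ratio of means of 2.32, and the null range contained the ESC values of 1.02 and 1.10. The difference was 0.54 ± 0.12 under SB431542 (limma adjusted p = 0.0489) and 0.44 ± 0.12 under activin (limma adjusted p = 0.0751). Plet1 passed the filter through 2 null libraries, those of column II, and the call under SB431542 sat at the threshold. With means per column numeral, which average both treatments into a single comparison of the genotypes, Plet1 did not pass (limma adjusted p of 0.0936). The SB431542 call ended with no filter (0.0814) and with median-of-ratios scaling (limma adjusted p of 0.0507). It also ended without WT activin I (0.0938) or II (0.0941), WT SB431542 I (0.262) or II (0.188), or null activin I (limma adjusted p of 0.0590). The activin comparison passed without null SB431542 I (limma adjusted p = 0.0377).

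Tfap2c, which encodes an AP-2 factor, was the only transcription factor of the 10 genes above 3 FPKM in every library. It read 5.41 and 3.28 FPKM in WT EBs under activin and 3.92 and 3.82 under SB431542. The null EBs read 7.0 and 6.48 under activin and 5.71 and 8.27 under SB431542. The lowest null value, 5.71, and the highest WT value, 5.41, were close, and the ratio of means was 1.67. Differences of 0.56 ± 0.22 under activin and 0.70 ± 0.22 under SB431542 did not pass (limma adjusted p of 0.153 and 0.102).

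Hand1 and Gata3 also read higher in the null libraries, at levels under 1 FPKM. Hand1 read 0.199 and 0.452 FPKM in WT EBs under activin and 0.540 and 0.657 in null EBs. Under SB431542 it read 0.234 and 0.358 in WT and 0.653 and 0.625 in null EBs. The genotypes did not overlap, with a ratio of means of 1.99. Gata3 read 0.0919 and 0.164 FPKM in WT EBs under activin and 0.220 and 0.301 in null EBs. Under SB431542 it read 0.138 and 0.0719 in WT and 0.169 and 0.364 in null EBs, so that 0.164 and 0.169 were the nearest values of the genotypes. In the fit without a filter Hand1 differed by 0.28 and 0.34 (limma adjusted p of 0.213 and 0.144) and Gata3 by 0.16 and 0.19 (0.351 and 0.263), none of which passed.

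Cdx2 and Elf5 showed no such separation. Cdx2 read 0.581 and 0.667 FPKM in WT EBs under activin, 0.774 and 0.400 in WT under SB431542, 0.858 and 0.443 in null under activin and 0.632 and 0.296 in null under SB431542. In 3 of the 4 EB groups column I was higher than column II. In these 3 groups the libraries lay farther apart than the means of any EB groups did, while WT under activin was narrower. Elf5 was narrower, from 0.308 to 0.389 in WT EBs and from 0.255 to 0.362 in null EBs. The ratios of means, null over WT, were 0.921 for Cdx2 and 0.885 for Elf5, with overlapping ranges.

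Krt8 had the largest difference among the keratins and also a wide spread within the null groups. It read 16.4 and 21.7 FPKM in WT EBs under activin and 14.1 and 18.6 under SB431542. Null EBs read 29.8 and 42.5 under activin and 25.8 and 45.7 under SB431542, all above the WT range, with a ratio of means of 2.03. Column II exceeded column I by 1.42 times in null EBs under activin and by 1.78 times under SB431542. The differences of 0.88 ± 0.31 and 1.04 ± 0.31 did not pass (limma adjusted p of 0.128 and 0.0930). With column I of both null groups left out they were 1.13 and 1.44 and passed (limma adjusted p of 0.0222 and 0.0128). With column II left out they were 0.63 and 0.64 and did not (0.129 and 0.132). Under SB431542 the comparison also passed without null SB431542 I alone (limma adjusted p = 0.0460).

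Krt18, the partner of Krt8, was steadier. It read 18.3 and 22.6 FPKM in WT EBs under activin and 15.8 and 24.1 under SB431542. The null EBs read 23.6 and 31.2 under activin and 21.7 and 35.8 under SB431542. The genotypes overlapped, with differences of 0.40 ± 0.29 and 0.49 ± 0.29 (limma adjusted p of 0.408 and 0.314). Krt19 read 1.89 and 2.07 in WT under activin, 1.49 and 2.496 in WT under SB431542, 2.86 and 2.56 in null under activin and 2.57 and 3.40 in null under SB431542. Its genotypes were set apart by the narrow gap from 2.496 to 2.56, and the differences of 0.32 ± 0.17 and 0.43 ± 0.17 did not pass (limma adjusted p of 0.281 and 0.174).

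The balance within the keratin pair shifted with the group. The ratio of Krt8 to Krt18 was 0.896 and 0.959 in WT EBs under activin and 0.890 and 0.773 under SB431542, so Krt18 was the higher of the pair in every WT EB library. It was 1.26 and 1.36 in null EBs under activin and 1.18 and 1.28 under SB431542, so Krt8 was the higher there. ESCs stood farthest out, at 1.81 and 1.75. The 3 sets of libraries did not overlap in this ratio, which was computed after the values were seen and was not tested.

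**Figure D2:**
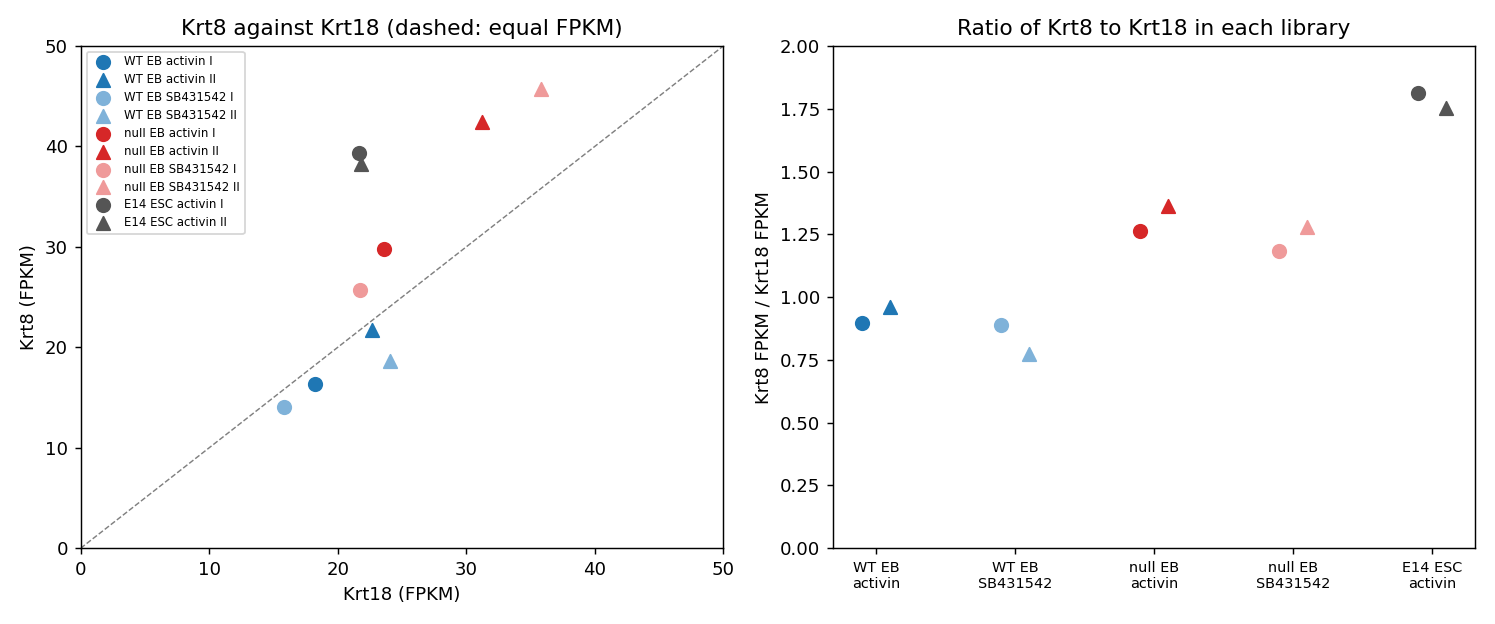
Left, FPKM of Krt8 against Krt18 in each of the 10 libraries, with a dashed line where both are equal; right, their ratio in each library, by group. WT EB libraries lie below the line with ratios of 0.773 to 0.959, Trim33-null EB libraries lie above it with ratios of 1.18 to 1.36, and ESC libraries have ratios of 1.75 and 1.81.

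Across both treatments, 7 of the 10 members were higher in all 4 null EB libraries than in all 4 WT EB libraries, and none was lower in all 4. Over the 25551 genes above 0 in an EB library, 12.5% were higher in all 4 null libraries and 14.9% were lower. Among genes with an EB mean under 1 FPKM the share higher was 10.7%, and 3 of the 5 members there were higher (Hand1, Gata3 and Plet1). Among genes with an EB mean of at least 1 FPKM it was 15%, and 4 of 5 members were higher (Ascl2, Tfap2c, Krt8 and Krt19). The WT libraries are shared by all members, so these counts are not independent of each other. Libraries of the same numeral also deviated together across treatments (correlation of deviations 0.456 in WT and 0.907 in null EBs). The 4 libraries of a genotype may therefore hold fewer than 4 independent measures. The members were also chosen with earlier results of these data known, so setting their share beside that of all genes is no test. Of all genes, 385 were called higher and 530 lower under activin, and 462 and 452 under SB431542. After scaling by the median of ratios the split was 430 and 321, and 516 and 337.

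**Figure D3:**
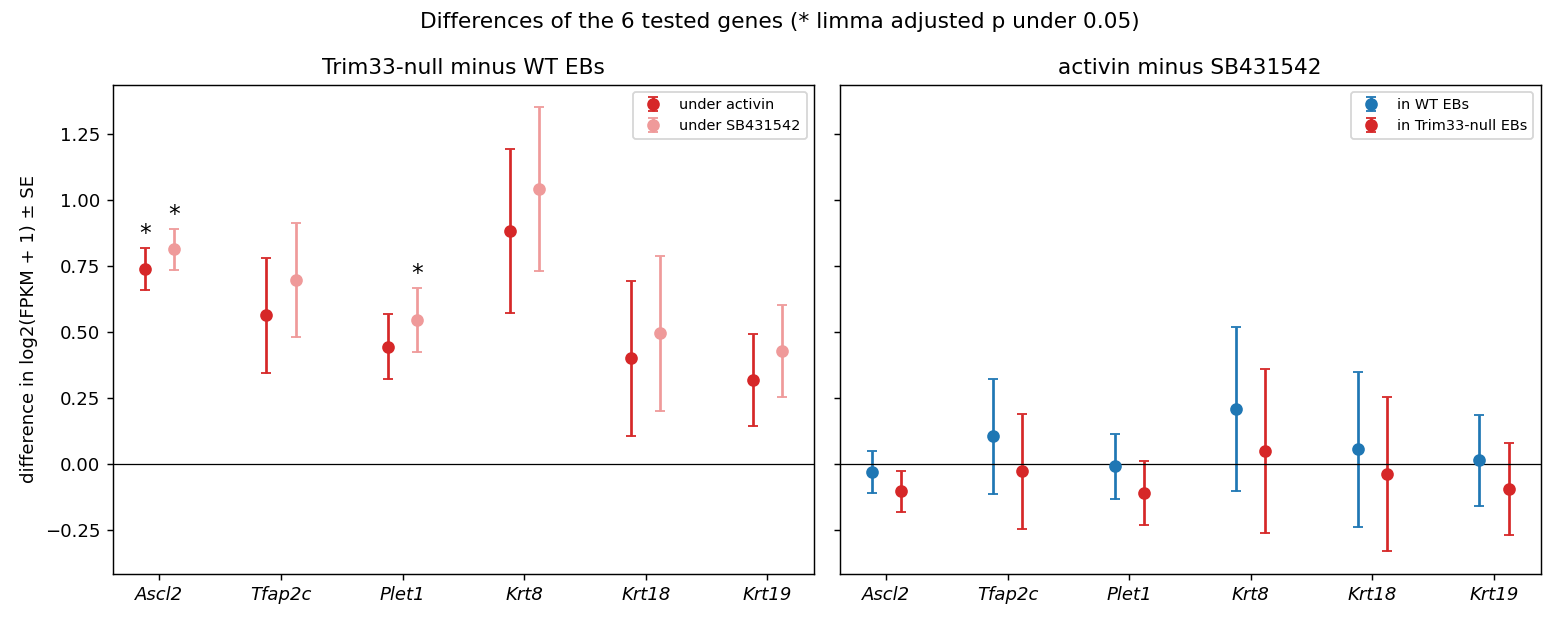
Difference in log2(FPKM + 1) with its standard error for the 6 tested genes: left, Trim33-null minus WT EBs under each treatment; right, activin minus SB431542 in each genotype. An asterisk marks a limma adjusted p under 0.05, which Ascl2 reaches under both treatments and Plet1 under SB431542; the differences on the right lie within 0.21 of 0.

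No member differed detectably between EBs given activin and EBs given SB431542 for a short time. No EBs without either treatment were among the RNA-seq libraries, so neither was set against a baseline. In WT EBs the limma test called 25 genes, 0.221% of those tested, and in null EBs 13 genes, 0.115%. None of the 6 tested members was among them, and none had an unadjusted p under 0.05. Among these 6 the largest difference was 0.21 in WT EBs, for Krt8, and 0.11 in size in null EBs, for Plet1. Cdx2, from the fit without a filter, differed by 0.17 in null EBs, with overlapping libraries. The ranges under activin and SB431542 overlapped for all 10 members in WT EBs. In null EBs they overlapped for all but Ascl2, at 1.68 to 1.82 FPKM under activin and 1.83 to 2.09 under SB431542. The difference in activin response between the genotypes was called for 0% of genes by limma (24 had an unadjusted p under 0.05, none of them a member), and its largest value among the 6 was 0.16 in size, for Krt8. With single EB libraries left out, the sign of the activin difference changed for 9 of the 10 members in WT EBs, for 9 in null EBs, and for 8 in the difference between genotypes. With 2 libraries a group these values do not show that activin has no effect on the members.

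The comparison with ESCs, all under activin, placed 7 of the members in 3 patterns, and the other 3 overlapped the WT EBs. Here cell state and cell line changed together and cannot be told apart, and 56.9% of the 11661 genes tested were called between WT EBs and ESCs, and 59.8% between null EBs and ESCs. Of the 6 tested members 4 and 2 were called, and nothing is read from these counts beside such shares. Both comparisons share the ESC libraries.

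The first pattern was Krt19, lower in EBs of both genotypes. It read 7.39 and 6.85 FPKM in ESCs, and the highest EB value was 3.40. The differences from ESCs were -1.45 ± 0.16 for WT and -1.13 ± 0.16 for null EBs (limma adjusted p of 0.000222 and 0.000781). Its ratio to Krt18 was 0.341 and 0.313 in ESCs and 0.0821 to 0.121 in EBs.

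The second pattern was lower in WT EBs than in ESCs, with null EBs near or above the ESCs. Krt8 read 39.3 and 38.3 FPKM in ESCs, inside the null range of 29.8 to 42.5 and above the WT values of 16.4 and 21.7. WT EBs differed by -1.002 ± 0.28 for Krt8 (limma adjusted p = 0.0182) and by -0.50 ± 0.11 for Plet1 (limma adjusted p = 0.00572). Ascl2 was lower in WT EBs, by -0.29 ± 0.07 (limma adjusted p = 0.0117), and higher in null EBs, by 0.45 ± 0.07 (limma adjusted p = 0.00151). The Krt8 call ended without WT activin I (0.106), ESC I (0.0812) or ESC II (limma adjusted p of 0.0745). The WT call of Ascl2 ended without WT activin I (0.0547) or ESC I (limma adjusted p of 0.0829).

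Tfap2c, Krt18 and Hand1 were not separated between WT EBs and ESCs. Tfap2c, at 6.04 and 5.21 FPKM in ESCs, overlapped the WT range under activin and lay below the null values of 7.0 and 6.48. Krt18, at 21.7 and 21.8, lay inside the WT range and below the null values under activin. Hand1, at 0.426 and 0.342, likewise lay inside the WT range and below the null values under activin.

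The third pattern was higher in EBs than in ESCs. Cdx2 read 0.0613 and 0.122 FPKM in ESCs, and every EB library was above that, with a ratio of WT EBs to ESCs of 6.80 and of null EBs to ESCs of 7.09. Elf5 read 0.170 and 0.180 in ESCs, below every EB library. In the fit without a filter Cdx2 was higher by 0.57 in WT and 0.59 in null EBs (limma adjusted p of 0.0363 and 0.0328), and Elf5 by 0.17 and 0.16 (0.0247 and 0.0317). Gata3 read 0.0523 and 0.0752 in ESCs and was higher in null EBs by 0.24 in that fit (limma adjusted p = 0.0421). In WT EBs under activin it read 0.0919 and 0.164, higher by 0.08, which did not pass (limma adjusted p = 0.454). Unlike Cdx2 and Elf5, it was not above ESCs in every EB library: WT SB431542 II, at 0.0719, lay inside the ESC range. Each of these 5 calls on values under 1 FPKM ended when single libraries were left out, with limma adjusted p-values up to 0.178. Leaving out either ESC library ended all 5.

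**Figure D4:**
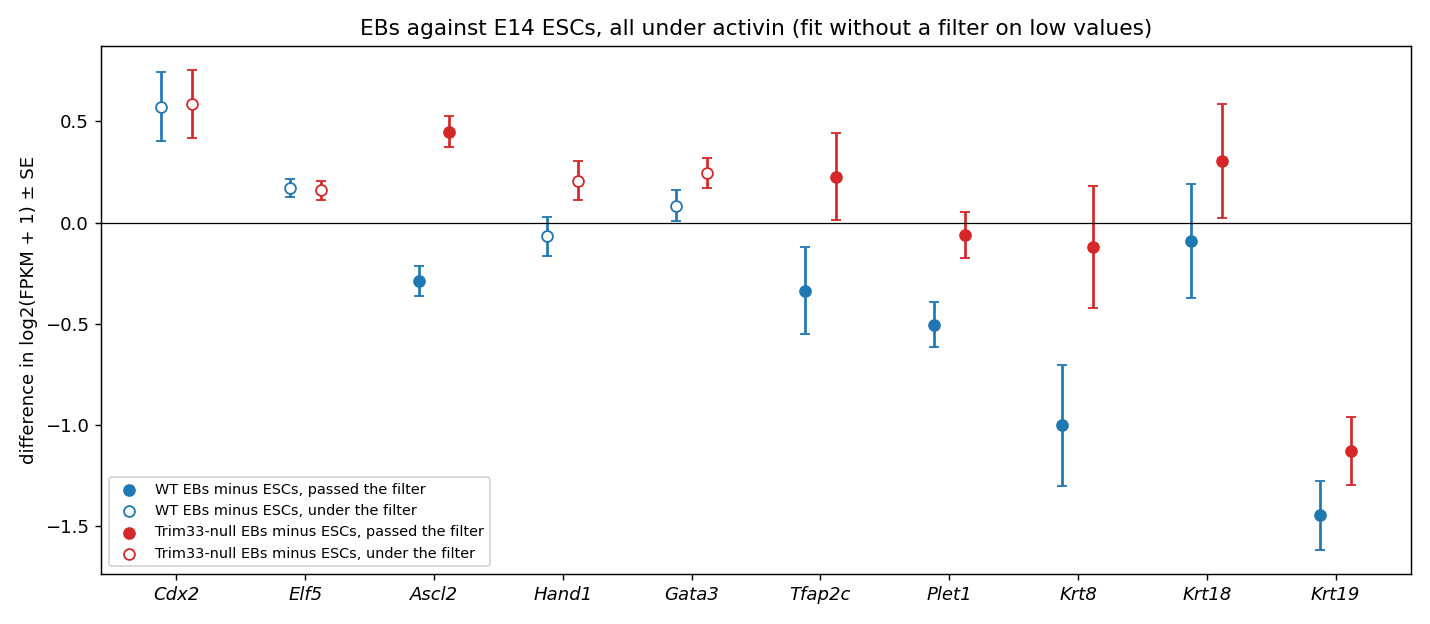
Difference in log2(FPKM + 1), EBs minus ESCs, with its standard error for all 10 genes from the fit without a filter on low values; filled points are genes that passed the filter and open points are those that did not. Krt19 is below 0 for both genotypes, Cdx2 and Elf5 are above 0 for both, and Ascl2 is below 0 for WT and above 0 for Trim33-null EBs.

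Of 13 other regulators of the trophoblast, 7 were higher in all 4 null than in all 4 WT EB libraries, beside 12.5% of genes. These were Tead4, Gata2, Tfap2a, Sox21, Klf5, Gcm1 and Esx1. Gcm1, a factor of labyrinth trophoblast, read 0.376 to 0.602 FPKM in WT and 0.841 to 1.19 in null EBs. Yap1, a cofactor of the TEAD factors, was lower, at 10.9 to 12.3 FPKM in null against 14.0 to 14.5 in WT EBs. The calls in this list and in the lists below were not followed with libraries left out. Of the 13 genes 6 were high enough to be tested. Under activin 1 was lower in null EBs and none higher. This was Eomes, a T-box factor of trophoblast stem cells and of the primitive streak. It read 13.9 and 23.0 FPKM in WT EBs under activin and 2.204 and 5.10 in null EBs, a difference of -2.10 ± 0.44 (limma adjusted p = 0.0425). Under SB431542 1 was higher and none lower: Klf5, a factor shared by naive ESCs and the trophectoderm, at 3.23 and 3.37 FPKM in WT and 5.16 and 6.37 in null EBs (limma adjusted p = 0.0143). The median difference of these 6 was 0.02 under activin and 0.00 under SB431542. Against ESCs, 3 of 7 tested were higher and 3 lower in EBs of each genotype. In WT EBs Klf5 and Tead4, the TEAD factor of the early trophectoderm, were lower by 2.16 and 1.30 on the log2 scale, and Eomes was higher by 3.48 (limma adjusted p of 5.6e-06, 1.51e-05 and 0.000265).

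Of 13 placental genes 6 were tested. Peg10, an imprinted gene derived from a retrotransposon and required for the placenta, was higher in null EBs under SB431542, at 31.8 and 32.0 FPKM against 14.9 and 17.8 in WT (limma adjusted p = 0.0289). It was the 1 call in this list between genotypes. The median difference of the 6 was 0.32 under activin and 0.49 under SB431542, against -0.03 and -0.02 over all genes tested. Of the 13 genes 4 were higher in all 4 null than in all 4 WT libraries, beside 12.5% of genes: Peg10, Prl2c2, Phlda2 (9.68 to 20.96 FPKM in WT, 24.3 to 45.3 in null EBs) and Plac1 (0.126 to 0.171 in WT, 0.275 to 0.426 in null EBs). Prl2c2 read 0.833 and 1.61 FPKM in WT EBs under activin and 4.11 and 5.20 in null EBs. It belongs to a family of near-identical genes, and reads could have been split among its copies. Its groups did not overlap and it was not called between genotypes.

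Epithelial genes outside the keratins differed in both directions. Cldn4, a claudin of tight junctions, read 15.5 to 25.9 FPKM in WT and 36.3 to 77.3 in null EBs, with differences of 1.33 and 1.38 that did not pass (limma adjusted p of 0.115 and 0.107). It was higher in all 4 null libraries, and 5 genes (Cldn3, Cldn6, Cldn7, Ocln and Pkp2) were lower in all 4. Over all genes, 12.5% were higher and 14.9% lower in this way. Of 10 listed, all 10 were tested, and the 1 call between genotypes under each treatment was Ocln, a tight junction protein that was lower in null EBs. It read 2.04 and 2.201 FPKM in WT EBs under activin and 1.21 and 1.31 in null EBs (-0.47 ± 0.08, limma adjusted p = 0.0298). The list's median difference was -0.15 under activin and -0.11 under SB431542. Cldn6, Epcam and Cldn7, which encode junction and adhesion proteins, were higher in WT EBs than in ESCs by 1.67, 1.07 and 1.803 (limma adjusted p of 9.52e-06, 4.91e-05 and 5.86e-05). No other keratin of 11 listed entered the EB fit. Krt17 and Krt42 read 4.54 ± 0.095 and 3.99 ± 0.27 FPKM (SD, n = 2) in ESCs and at most 0.515 and 0.801 in EBs. Of 15 paralogs of the members 1 was tested, Elf3, an epithelial factor related to Elf5, and it was not called between genotypes. Higher in all 4 null libraries were 9 of the 15, beside 12.5% of genes. Among them was Cdx4, at 0.139 to 0.205 FPKM in WT and 0.254 to 0.334 in null EBs. The lists share genes: Gata2 and Tfap2a of these 9 also stand among the 7 regulators above. Gata4, Gata6 and Hand2 are counted again in the lists below.

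Markers of other cells that share these genes moved in part with the genotype. Grhl3, a surface ectoderm factor, was the 1 tested gene of 7 in its list. It read 0.679 and 0.828 FPKM in WT EBs under activin and 1.41 and 1.97 in null EBs, with differences of 0.61 and 0.58 under the treatments (limma adjusted p of 0.0451 and 0.0499). Both p-values lie at the threshold, and Grhl3 reached 1 FPKM in no WT EB library. It thus entered the EB fit through its null libraries alone, and its calls are given as a description only. The defining surface ectoderm gene Trp63 read at most 0.0130 FPKM. The summed level of that list was 0.854 to 1.32 in WT and 1.57 to 2.57 in null EBs. Most of this sum was Grhl3 itself, so it does not show a shift of the whole list. Of the 7 genes 2 were higher in all 4 null libraries, beside 12.5% of genes. These were Grhl3 and Krt5, which read at most 0.105 FPKM in EBs, and the other 5 overlapped between genotypes. Of 10 early mesoderm genes 3 were tested. Bmp4, Snai1 and Hand2, 3 of the 10, were higher in all 4 null libraries, beside 12.5% of genes. Tbx6 was lower in all 4, at 0.127 to 0.164 FPKM against 0.186 to 0.225 in WT EBs, and 6 genes overlapped. Bmp4, a ligand that can steer human pluripotent cells towards trophoblast, was higher in null EBs under both treatments, by 0.43 and 0.65 (limma adjusted p of 0.0312 and 0.0118). It read 0.922 and 1.07 FPKM in WT and 1.57 and 1.81 in null EBs under activin, against 5.05 and 5.49 in ESCs. Of the WT EB libraries only that at 1.07 reached 1 FPKM, so Bmp4 entered the EB fit through its null libraries. Its calls are likewise given as a description only. Snai1, a repressor of epithelial genes, was called higher under SB431542 (0.75 ± 0.13, limma adjusted p = 0.0236). The 10 extraembryonic endoderm genes summed to 2.84 to 5.67 FPKM in WT and 3.12 to 5.24 in null EBs. Within that list 7 genes overlapped between genotypes. The other 3 were higher in all 4 null libraries, beside 12.5% of genes: Gata4 (0.287 to 0.503 FPKM in WT, 0.665 to 0.931 in null EBs), Gata6 (0.139 to 0.164 and 0.226 to 0.350) and Amn (0.443 to 0.648 and 0.666 to 1.02). Foxa2, the 1 tested gene of the list, was lower on average in null EBs and was not called. Under activin it read 1.26 to 3.34 FPKM in WT and 0.103 to 1.21 in null EBs. The part of all these markers in the differences of the members was not tested.

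The genes closest in pattern to the members were found over all 10 libraries, among 2549 genes that spanned at least 1 on the log2 scale. Only Krt8, Krt18, Krt19 and Tfap2c spanned as much. Nearest to Krt8 were S100a6, Crabp1 and Ak1, each with a Pearson correlation of 0.982. Nearest to Krt18 were Mfge8 (0.937), Anxa1 (0.937) and S100a11 (0.931). Krt19 was closest to Mvp (0.988), Scpep1 (0.987) and Fgf4 (0.984), and Tfap2c to the predicted genes Gm14742 (0.921), Gm16344 (0.910) and Gm20625 (0.909). These values describe 10 points in 3 sets of cells that share library and line, and they carry no test.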

How the data were processed

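RNA-seq values were used from 10 libraries in 5 groups of 2. The authors deposited FPKM in a single table. Per the submitters' processing notes, the build was mm9 and the tools were Cufflinks 2.2.1, STAR 2.4.0, Bowtie2 2.2.2 and CASAVA 1.8, with no roles given. The 8 ATAC-seq and 5 ChIP-seq samples were not analysed here. Annotation and strandedness: not given in the sources used here. Columns were matched to groups by name; for Trim33-null EBs the numerals I and II could not be tied to numbers in titles. Of 29145 rows, the one with the highest mean was kept per symbol and 113 were left out. Values hold no counts. Values under 0.06 FPKM were set against those of ESC library I, as log2 ratios in bins of 0.02. The most common ratio held only 4.75% to 14.4% of them in the other libraries. Reads were hence not recovered, depth is unknown and no count test was run.

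Log2(FPKM + 1) values were tested with limma 3.58.1 (R 4.3.3), using an intensity trend, genes of at least 1 FPKM in at least 2 libraries, Benjamini-Hochberg adjustment and a threshold of 0.05. The EB comparisons came from a fit of the 8 EB libraries (11317 genes) and those with ESCs from all 10 (11661 genes). Both fits had no replicate block and treated their libraries as independent. The fit was tested on simulated data. The members and lists were chosen with earlier results of these data known. All members are named; from the other lists, genes that passed limma were named, up to 3 per comparison with the smallest p, together with markers read as checks (Pou5f1, Prl3b1, Tpbpa, Trp63, Eif2s3y) and genes chosen after their values were seen, for not overlapping between EB genotypes. Alternatives were another pseudocount (0.1), no filter, median-of-ratios scaling, a replicate block, each comparison's own 4 libraries, means per column numeral and leaving out libraries. The means per column numeral averaged the activin and SB431542 libraries of each numeral within a genotype. They gave a single genotype comparison, whose values stand under both treatments. Promoters were read from RefSeq (GRCm38.p6) by gene symbol with Python 3.11.15 and pandas 2.3.3.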

Additional observations from a re-analysis of the deposited data

How the results depend on the processing

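The alternatives were followed for 27 of the genotype and ESC differences printed above for members on the log2 scale. None of these changed sign under any alternative run. Calls of genes outside the members were not followed under the alternatives, so how far they hold is not known. Other genotype and ESC differences of members were not followed either, and some are not stable in sign. Between genotypes under activin, Cdx2 differed by 0.01 in the fit without a filter. Its null library II, at 0.443 FPKM, lay below both WT libraries, so its sign turns without null activin I. Activin differences and the interaction did change sign without single libraries. They did so for 9 of 10 members in WT EBs, 9 in null EBs and 8 between genotypes. Of 142 values under other settings 134 kept their side of the threshold, 4 lost a call and 4 gained one; with single libraries left out, 192 of 234 kept it, 40 lost a call and 2 gained one. Members called between genotypes under activin numbered 1, with a range of 0 to 2 without single libraries and 3 without column I of both null groups. With means per numeral, a single comparison that averages both treatments, 1 member was called. Under SB431542 there were 2, and 1 with no filter, with median-of-ratios scaling and in the comparison's own 4 libraries. There were 4 without column I of both null groups, 1 without column II, and 0 to 3 without single libraries. Plet1 lost its SB431542 call with no filter (limma adjusted p = 0.0814) and with scaling (0.0507), while Ascl2 kept its call in each. In the single comparison of means per numeral Plet1 did not pass (limma adjusted p = 0.0936) and Ascl2 did (0.0411). Tfap2c under SB431542 was called only without column I of both null groups (limma adjusted p = 0.0400). These column settings were chosen after seeing the data. Members called between WT EBs and ESCs numbered 4, and 2 to 4 without single libraries; between null EBs and ESCs they numbered 2, and 5 without the filter, which adds genes under 1 FPKM. In null EBs the largest activin difference among the 6 tested members rose from 0.11 to between 0.23 and 0.45 without single null libraries.

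Counts over all genes moved more. The means per numeral average both treatments into a single comparison, so their count of 296 stands for activin and SB431542 alike. Genotype calls under activin were 915, but 50 in their own 4 libraries, 296 with means per numeral, 3355 without column I and 8 without WT activin I. Under SB431542 they were 914, 279, 296, 3380 and, without WT SB431542 II, 3. Activin calls in WT EBs were 25, and 15 with no filter and 38 in their own libraries; in null EBs they were 13, 6 and 0. The cause was not tested. Libraries of a numeral deviated together across treatments (correlation of deviations 0.456 in WT and 0.907 in null EBs), but with 2 pairs a genotype the labels do not show what a number shares. With the replicate block 123 and 83 genes were called for activin, and 0 members in either genotype or in the interaction. Depth is unknown, so precision at values under 1 FPKM cannot be stated.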

Other observations

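Of 10 naive pluripotency genes, all tested, 4 were called higher in null EBs under each treatment and 6 did not pass, beside 3.4% and 4.08% of all genes called higher under activin and SB431542. They included Tbx3, at 1.07 and 1.10 FPKM in WT EBs under activin and 3.54 and 4.21 in null EBs (1.22 ± 0.09, limma adjusted p = 0.00568), Zfp42 (1.08 ± 0.14, limma adjusted p = 0.0149) and Nr0b1 (0.79 ± 0.13, limma adjusted p = 0.0242). The list's median difference was 0.80 under activin and 0.95 under SB431542. In ESCs Zfp42 read 195 ± 3.9 FPKM (SD, n = 2), against 5.86 ± 0.89 in WT and 13.6 ± 2.3 in null EBs under activin.

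Of 7 genes of the formative and primed epiblast, all tested, 4 were called lower in null EBs under each treatment, beside 4.68% and 3.99% of all genes. Under activin Otx2, a homeobox factor of the epiblast, read 17.4 and 20.4 FPKM in WT and 5.82 and 8.62 in null EBs (-1.29 ± 0.20, limma adjusted p = 0.0198). Lin28b, which blocks let-7 maturation, was lower by 0.67 ± 0.08 on the log2 scale (limma adjusted p = 0.0141), and Sox3 by 0.53 ± 0.10 (limma adjusted p = 0.0324). None of the 4 core pluripotency genes was called between genotypes by limma. The part of these differences in the values of the trophoblast genes was not tested.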
